A study of Homo sapiens with 6 samples.

Results

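Metallothioneins are small, cysteine-rich proteins that bind zinc and copper, and together with zinc transporters they set how much free zinc a cell holds. Here 10 genes of this system were followed, of 29806 genes in the counts. They are the metallothioneins *MT2A*, *MT1X*, *MT1E* and *MT1F*, the zinc importers *SLC39A1*, *SLC39A7* and *SLC39A10*, the zinc exporters *SLC30A1* and *SLC30A4*, and *MTF1*. They were taken by symbol, through the NCBI Gene number of each row. All 10 had a row. A total of 9 genes had enough reads to be tested, and *MT1E* did not.

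The samples were RNA-seq libraries of LNCaP, a human prostate cancer cell line derived from a lymph node metastasis that responds to androgen. There were 3 libraries of wild type LNCaP parental cells and 3 of LNCaP cells in which PACT, the double-stranded RNA binding protein encoded by *PRKRA*, had been knocked out with CRISPR-Cas9 (PACT KO). Both groups were plated at 1000000 cells in a 10 cm dish, grown in RPMI-1640 with 10% fetal bovine serum, and harvested 48 h later at about 80% confluency, with no other treatment. The PACT KO dishes were all of a single clone, so the spread among replicates is that among dishes and may be technical, and a difference caused by the loss of PACT and one particular to this clone cannot be told apart.

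In the cell, zinc is sensed by *MTF1*, a zinc finger transcription factor that binds short sequences called metal response elements upstream of the metallothionein genes and of *SLC30A1* when zinc is high. Proteins of the SLC39 (ZIP) family bring zinc into the cytosol from outside or from organelles, and those of the SLC30 (ZnT) family move it out of the cell or into vesicles. The normal prostate epithelium accumulates far more zinc than most tissues. That zinc inhibits mitochondrial aconitase and so favours the secretion of citrate, a feature that prostate cancer cells usually lose.

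The stretch of 250 bases before the annotated start is shown for *MT2A* and *MT1X*, the 2 members with the largest fall, and for *SLC30A1*, the transporter gene best known as a target of *MTF1*. Capitals mark matches to the core of the metal response element, searched as TGCACNC and TGCGCNC on both strands, so that a match on the reverse strand appears as its reverse complement. Sequences are from RefSeq (GRCh38.p14) and read 5′ to 3′ on the strand of the gene.
*MT2A*, chr16:56608334-56608583, plus strand: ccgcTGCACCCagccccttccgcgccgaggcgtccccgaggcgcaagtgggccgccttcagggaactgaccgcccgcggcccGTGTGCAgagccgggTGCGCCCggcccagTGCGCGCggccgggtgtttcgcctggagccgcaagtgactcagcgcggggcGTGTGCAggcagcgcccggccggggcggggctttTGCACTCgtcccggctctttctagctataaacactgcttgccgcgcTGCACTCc
*MT1X*, chr16:56682220-56682469, plus strand: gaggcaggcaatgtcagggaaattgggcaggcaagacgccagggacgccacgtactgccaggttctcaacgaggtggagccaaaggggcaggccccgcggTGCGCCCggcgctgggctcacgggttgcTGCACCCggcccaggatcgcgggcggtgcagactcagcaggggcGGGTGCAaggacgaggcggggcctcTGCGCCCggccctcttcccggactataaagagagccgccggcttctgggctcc
*SLC30A1*, chr1:211579162-211579411, minus strand: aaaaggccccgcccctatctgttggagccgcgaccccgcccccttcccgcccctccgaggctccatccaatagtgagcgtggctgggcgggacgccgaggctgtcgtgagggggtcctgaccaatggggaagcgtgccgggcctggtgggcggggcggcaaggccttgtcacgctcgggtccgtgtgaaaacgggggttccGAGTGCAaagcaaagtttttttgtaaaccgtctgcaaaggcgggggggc
*MT2A* had 7 matches in these 250 bases and *MT1X* had 4, whereas *SLC30A1* had 1, at 49 bases before the start. Of 35116 windows of the same length before annotated human starts, 24.8% held at least 1 match, 0.370% held at least 4 and 0.0313% held at least 7. *SLC30A4* also had 1 match, and *SLC39A1* had 1 before one of its 2 annotated starts. None was found before *MTF1*, *SLC39A7* or the 2 starts of *SLC39A10* that were searched. The windows of those 2 starts end at 195656957 and 195657225, inside the RefSeq span of the gene (195613029-195737700), and its outer start was not searched. *MT1E* and *MT1F* had no window in the table used. Among metallothioneins outside the members that had a window, *MT1H* held 8 matches and *MT1B* and *MT4* held 3 each. These genes had at most 1 read in any library, so several matches were not particular to *MT2A* and *MT1X*. A match is a description of the letters and not a measurement of binding.

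**Figure D1:**
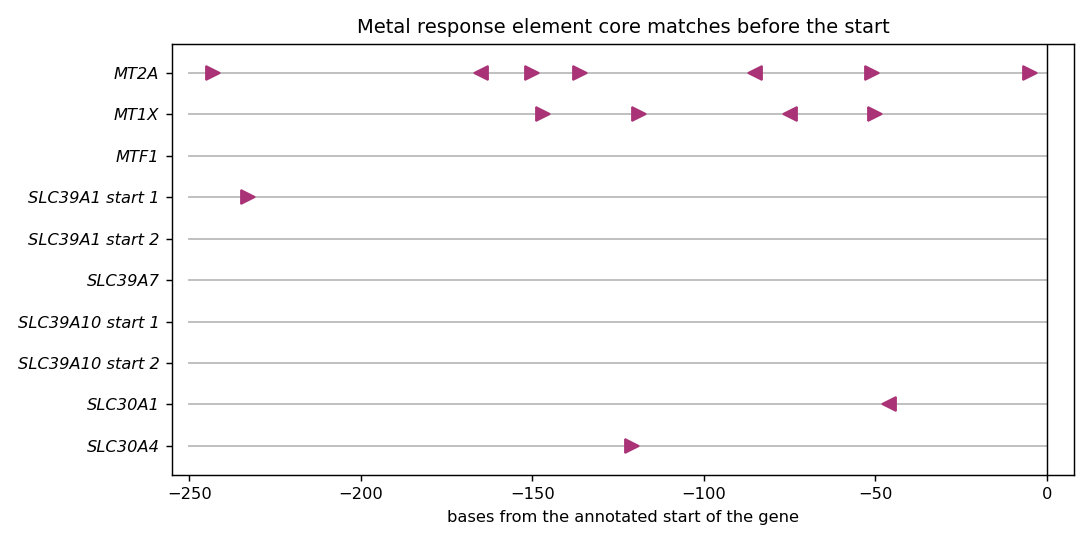
Position of matches to the metal response element core (triangles) in the 250 bases before each start searched, with 1 line per start. Triangles point right on the strand of the gene and left on the opposite strand. The x axis gives the distance from the start in bases. Only members are drawn, and among them *MT2A* carries 7 matches, *MT1X* carries 4 and no other line carries more than 1.

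The libraries held 19930060 to 24940838 reads on genes. *PRKRA*, the targeted gene, had 882, 809 and 866 reads in parental cells against 291, 331 and 243 in PACT KO cells, a log2 fold change of -1.57 ± 0.07 (SE; edgeR quasi-likelihood test, FDR 8.83e-21). All 12 markers of prostate luminal cells, the cell type that LNCaP resembles, were detected well enough to be tested, at a summed level of 4775 to 4799 CPM (reads of a gene for every 1000000 in the scaled library) in parental cells against 4957 to 5023 in PACT KO cells. None of 4 basal markers could be tested, with *KRT5*, *KRT15* and *TP63* at 3 reads or fewer in every library. Immune markers summed to 2.22 to 2.46 CPM against 1.62 to 1.83, with *PTPRC*, *CD3E*, *CD14* and *LYZ* at 3 reads or fewer. The remaining one, *CD68*, had 50, 43 and 54 reads in parental cells against 36, 39 and 34 in PACT KO cells. Its groups did not overlap, and its log2 fold change of -0.43 ± 0.18 (SE) did not pass (edgeR FDR 0.0512). Neuroendocrine markers summed to 1.66 to 2.07 CPM against 1.54 to 3.02, with 4 of 5 genes at 3 reads or fewer. The remaining one, *SYP*, had 47, 33 and 43 reads against 38, 41 and 61, with overlapping groups. Stromal markers summed to 31.0 to 35.0 CPM in parental cells against 43.7 to 49.7 in PACT KO cells. Most of this was *COL1A1*, a collagen gene, at 27.4 to 30.1 and 38.5 to 43.4 CPM. *COL1A1* passed in the higher direction, with groups that did not overlap (log2 fold change 0.52 ± 0.05 SE, edgeR FDR 1.98e-10). *ACTA2*, the other stromal marker tested, had 79, 100 and 99 reads against 110, 122 and 120. Its groups overlapped and it did not pass (log2 fold change 0.34 ± 0.13, edgeR FDR 0.0304). *COL1A2* had 0 reads in every library, *MYH11* had at most 3 and *DCN* and *LUM* had at most 6, and the part of *COL1A1* in the results below was not tested. In bulk RNA, fewer cells that express a gene and less RNA of it per cell cannot be told apart.

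Of the 9 members tested, 3 were lower in PACT KO cells (edgeR's quasi-likelihood test, threshold of 0.01 on the FDR), namely *MT2A*, *MT1X* and *SLC39A1*. One, *SLC30A4*, was higher, and 5 did not pass. Over all 14462 genes tested, 18.8% passed in the lower and 15.3% in the higher direction. The median log2 fold change was -0.06 over the members and 0.00044 over all genes. A differentially expressed gene (DEG) had to show a fold change of at least 1.5 as well. *MT2A* and *MT1X* were DEGs with lower levels, where the share over all genes was 2.65%, and 0 members were DEGs with higher levels, where it was 3.07%. The 3 values of one group lay wholly apart from those of the other for 5 of the 9 members and for 52.2% of all genes.

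**Figure D2:**
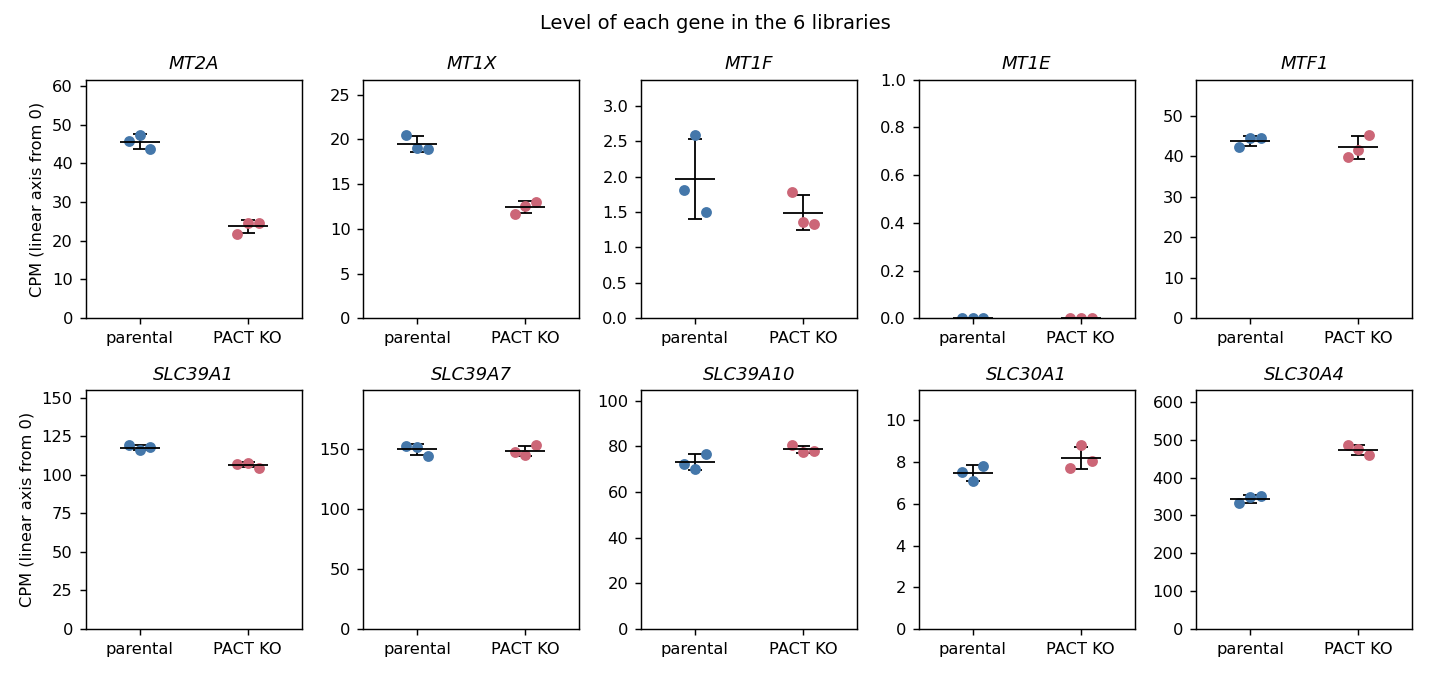
Level of each gene in CPM (y axis, linear and starting at 0, with its own range in each panel) in 3 LNCaP parental (blue) and 3 PACT KO (red) libraries, with the mean and SD of each group as black bars. *MT2A* and *MT1X* are lower and *SLC30A4* is higher in all 3 PACT KO libraries than in any parental library, while *MT1F*, *MTF1*, *SLC39A7* and *SLC30A1* overlap and *MT1E* has no reads.

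*MT2A* is the metallothionein that most human cell types express most. It had 1039, 1024 and 1080 reads in the LNCaP parental libraries and 539, 599 and 498 in the PACT KO libraries. Scaled to library size, these were 45.8, 47.4 and 43.6 CPM against 21.8, 24.6 and 24.6 CPM. Every PACT KO library lay well below every parental one, and the groups did not overlap. The mean fell from 45.6 ± 1.88 to 23.7 ± 1.63 CPM (SD, n = 3), 0.520 of the parental level, with a log2 fold change of -0.94 ± 0.05 (SE; edgeR quasi-likelihood test, FDR 2.40e-17).

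*MT1X*, a member of the metallothionein 1 group, changed in the same direction. Its reads were 466, 412 and 469 in parental cells against 289, 306 and 262 in PACT KO cells, or 20.5, 19.1 and 18.9 CPM against 11.7, 12.6 and 13.0 CPM. Again the lowest parental library was above the highest PACT KO library. The mean went from 19.5 ± 0.884 to 12.4 ± 0.648 CPM (SD, n = 3), 0.636 of the parental level. The log2 fold change was -0.65 ± 0.08 (SE; edgeR quasi-likelihood test, FDR 1.19e-08). In the GENCODE 29 annotation 39.0% of the exon bases of *MT1X* are shared with a transcript of the same strand, *AC026461.1*, and how reads there were assigned is not given in the sources used here.

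The other 2 metallothioneins among the members were weakly expressed or not detected. *MT1F* had 41, 56 and 37 reads in parental cells against 44, 33 and 27 in PACT KO cells, or 1.81, 2.59 and 1.49 CPM against 1.78, 1.36 and 1.34 CPM. The groups overlapped, as the first PACT KO library was above the third parental one. Its log2 fold change of -0.37 ± 0.21 (SE) did not pass the test (edgeR FDR 0.15), and it depended on single libraries. It was -0.54 without LNCaP parental replicate 3 (edgeR FDR 0.0491) and -0.13 without LNCaP parental replicate 2 (edgeR FDR 0.684). The 95% interval of the change, -0.78 to 0.04, includes both 0 and the estimate for *MT1X*, so no change and a fall of that size could not be told apart at this depth. *MT1E* had 0 reads in all 6 libraries. A count of 0 allows up to 3 reads, which is at most 0.151 CPM in these libraries, and this limit covers counting error alone.

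Since metallothionein genes are near-identical in their coding sequence, reads may have been split or lost among them, and their sum was therefore taken as well. The 12 metallothionein genes together held 1587, 1535 and 1643 reads in parental cells against 883, 947 and 796 in PACT KO cells. The summed level was 69.1 ± 2.43 CPM against 38.0 ± 1.98 CPM (SD, n = 3), a ratio of 0.550, or -0.86 on the log2 scale. All 3 PACT KO sums were below all 3 parental ones. *MT2A* gave 65.5% to 66.7% of these reads in parental cells against 61.0% to 63.3% in PACT KO cells, and *MT1X* gave 26.8% to 29.4% and 32.3% to 32.9%. The pair thus held most of the metallothionein reads in every library, with a smaller share for *MT2A* and a larger one for *MT1X* in PACT KO cells.

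The remaining metallothioneins were rare in LNCaP cells. *MT1G* was the only other one tested, with 29, 36 and 48 reads in parental cells against 2, 0 and 1 in PACT KO cells. It passed the filter on low counts only through the parental libraries, where it was high, so its values are given as a description, with no test. With 113 parental reads against 3, scaled to the library sizes, the level was 37.7-fold lower, with a 95% exact interval from 12.6 to 186 that covers counting error only. *MT3*, the metallothionein first known from brain, had 11, 7 and 9 reads against 9, 8 and 7 and was below the filter. *MT1A* and *MT1B* had at most 1 read in a library, and *MT1H*, *MT1HL1*, *MT1M* and *MT4* had 0. Leaving *MT1G* aside, the metallothioneins tested were therefore the 3 members described above.

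The 4 member metallothioneins lie within 75.6 kb of chromosome 16 in GRCh38.p14, from the start of *MT2A* (56608584-56609497) through *MT1E* (56625781-56627112) and *MT1F* (56657959-56659303) to the end of *MT1X* (56682470-56684196), with *MT1G* at 56666730-56668065. Genes on either side of this cluster were examined with it. Of 10 such neighbours 8 were tested, and 3 were lower (37.5%, beside 18.8% of all genes) and 1 was higher (12.5%, beside 15.3%), none of them a DEG, with a median log2 fold change of 0.0015. *NUP93*, a nuclear pore gene just beyond *MT1X*, had a log2 fold change of -0.35 ± 0.03 (SE; edgeR FDR 1.97e-11), and *OGFOD1*, an oxygenase gene on the side of *MT2A*, of -0.20 ± 0.04 (edgeR FDR 1.97e-04). *HERPUD1*, a gene of the endoplasmic reticulum stress response, was higher by 0.34 ± 0.04 (edgeR FDR 1.68e-09). *MT1DP*, a pseudogene of the cluster that lies outside the rule for naming genes and was chosen after its values were seen, had 22, 15 and 28 reads against 37, 20 and 20, with overlapping groups (log2 fold change 0.24 ± 0.28, edgeR FDR 0.511). The changes of *MT2A* and *MT1X* were larger than those of the tested neighbours that passed, and the difference was not tested.

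**Figure D3:**
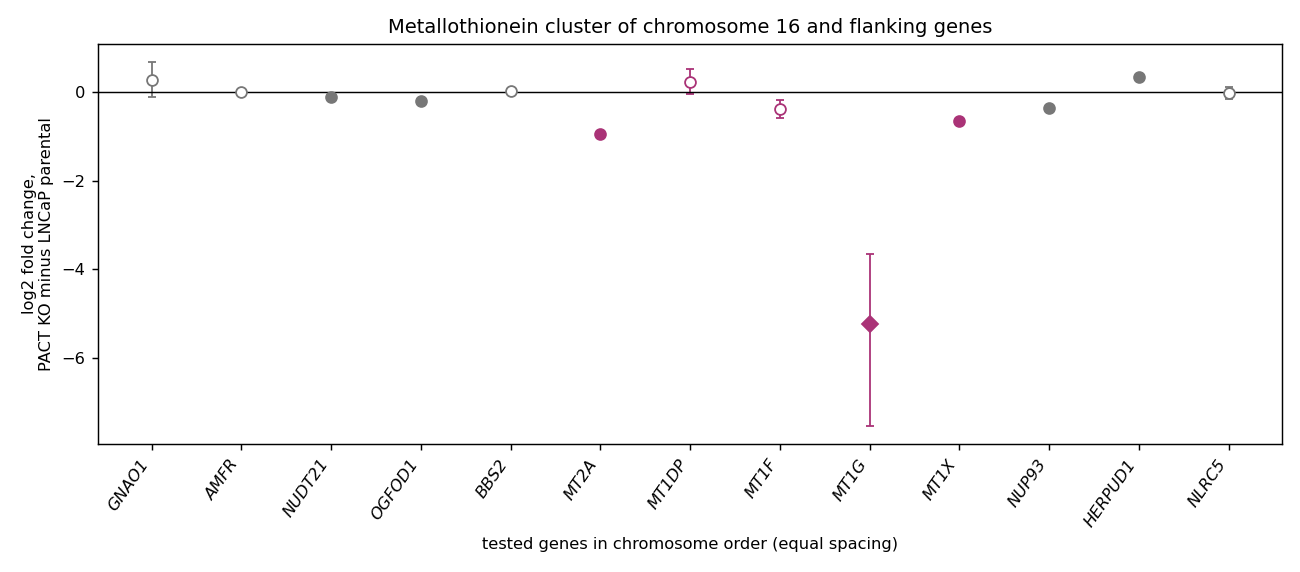
Log2 fold change (PACT KO minus LNCaP parental, y axis) of the tested genes of the metallothionein cluster (purple) and of its flanks (grey), in chromosome order at equal spacing. Circles show the fitted value with its SE (filled where the FDR is under 0.01), and the diamond shows *MT1G* from its pooled reads with its 95% counting interval. *MT2A* (-0.94) and *MT1X* (-0.65) lie below the flanking genes, which range from -0.35 to 0.34.

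*MTF1*, the zinc sensor, lies on chromosome 1 (37809574-37859592). Its reads were 963, 965 and 1103 in parental cells against 987, 1009 and 917 in PACT KO cells, which gave 42.4, 44.6 and 44.5 CPM against 39.9, 41.5 and 45.4 CPM. The groups overlapped, and the highest value of all was a PACT KO library. The PACT KO mean was 42.3 ± 2.79 CPM (SD, n = 3), and the log2 fold change was -0.06 ± 0.05 (SE; edgeR quasi-likelihood test, FDR 0.317). The 95% interval ran from -0.15 to 0.03, so any difference in *MTF1* mRNA was smaller than those of *MT2A* and *MT1X*. These are mRNA levels, and the amount, location and metal binding of the protein were not measured.

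Among the importers, *SLC39A1* encodes ZIP1, the uptake transporter of the plasma membrane that is known in prostate epithelium for zinc accumulation (chromosome 1, 153959110-153968184). It had 2705, 2507 and 2926 reads in parental cells against 2652, 2617 and 2115 in PACT KO cells, or 119, 116 and 118 CPM against 107, 108 and 105 CPM. The groups were separate, although the gap between them was small. The mean fell from 118 ± 1.63 to 107 ± 1.66 CPM (SD, n = 3), with a log2 fold change of -0.14 ± 0.03 (SE; edgeR quasi-likelihood test, FDR 2.20e-04). This passed the test and was far below the 1.5-fold of a DEG. In GENCODE 29, 60.8% of the exon bases of *SLC39A1* are shared with *AL358472.7*, a gene model of the same strand, and 2.98% with *CREB3L4* on the opposite strand. *CREB3L4* had a log2 fold change of 0.08 ± 0.03 (edgeR FDR 0.0421), and whether strand was used in counting is not given in the sources used here.

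*SLC39A7* encodes ZIP7, which releases zinc from the endoplasmic reticulum and Golgi into the cytosol (chromosome 6, 33200867-33204437). Its levels were 152, 152 and 144 CPM in parental cells against 147, 145 and 153 CPM in PACT KO cells. The ranges were almost the same. The log2 fold change was -0.01 ± 0.03 (SE; edgeR FDR 0.777), with a 95% interval from -0.07 to 0.05.

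*SLC39A10* encodes ZIP10, another importer of the plasma membrane (chromosome 2, 195613029-195737700). It had 1639, 1512 and 1902 reads in parental cells against 1985, 1886 and 1577 in PACT KO cells, or 72.2, 69.9 and 76.8 CPM against 80.3, 77.5 and 78.0 CPM. The groups did not overlap, but the nearest values, 76.8 and 77.5 CPM, were close. Its log2 fold change of 0.11 ± 0.04 (SE) did not pass at an FDR under 0.01 (edgeR FDR 0.0182). It passed with upper quartile scaling (0.13, edgeR FDR 0.00404) and without LNCaP parental replicate 3 (0.15, edgeR FDR 0.00262), but was at 0.08 without LNCaP parental replicate 2 (edgeR FDR 0.133) and at 0.11 with DESeq2 (FDR 0.0539). Over the libraries left out its value ran from 0.08 to 0.15, so it depended on single dishes.

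The exporters were *SLC30A1* and *SLC30A4*. *SLC30A1* encodes ZnT1, which carries zinc out through the plasma membrane (chromosome 1, 211571568-211579161), and it had 171, 153 and 194 reads in parental cells against 191, 214 and 163 in PACT KO cells. In CPM these were 7.53, 7.08 and 7.83 against 7.73, 8.80 and 8.06. The groups overlapped. The log2 fold change of 0.13 ± 0.10 (SE) did not pass (edgeR FDR 0.296), and its 95% interval of -0.06 to 0.33 excluded a fall of the size seen in *MT2A* or *MT1X*.

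*SLC30A4* encodes ZnT4, which moves zinc into intracellular vesicles (chromosome 15, 45479606-45522755). Its reads were 7540, 7525 and 8732 in parental cells against 11981, 11553 and 9282 in PACT KO cells. The levels of 332, 348 and 353 CPM in LNCaP parental cells were all below the 485, 475 and 459 CPM of PACT KO cells, with a wide gap between the groups. The mean rose from 344 ± 10.8 to 473 ± 13.0 CPM (SD, n = 3), a ratio of 1.37, and the log2 fold change was 0.46 ± 0.03 (SE; edgeR quasi-likelihood test, FDR 1.49e-16). It was the member with the most reads and the only one to rise at the threshold used, though by less than 1.5-fold. On the opposite strand, *HMGN2P46*, a transcribed pseudogene that shares 3.00% of the exon bases of *SLC30A4*, was also higher, with 424, 391 and 448 reads against 602, 569 and 469 (log2 fold change 0.37 ± 0.07, edgeR FDR 2.08e-05). Without strand, reads in the shared stretch cannot be told apart.

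To set the genes beside one another, levels were divided by the length of the longest coding transcript in GENCODE 29. On this scale *SLC39A7*, at 62.1 ± 1.82 CPM per kb (SD, n = 3), and *MT2A*, at 58.0 ± 2.40, headed the order in parental cells against overlapped each other, the highest *MT2A* value (60.3) being above the lowest of *SLC39A7*. *SLC30A4* followed at 48.1, *SLC39A1* at 43.2 and *MT1X* at 36.3 CPM per kb. *SLC39A10* (13.4), *MTF1* (5.50), *MT1F* (2.85) and *SLC30A1* (1.37) came after them, and *MT1E* was at 0. Only *SLC39A7* and *MT2A* were neighbours whose ranges met.

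In PACT KO cells the order per kb began with *SLC30A4* (66.1, range 64.1 to 67.8) and *SLC39A7* (61.6, range 60.1 to 63.4), which did not overlap. *SLC39A1* came next at 39.1, above *MT2A* at 30.1 and *MT1X* at 23.1 CPM per kb. *MT2A* thus moved from the second place to the fourth and *SLC30A4* from the third to the first. The places of the other genes, from *SLC39A10* (14.5) and *MTF1* (5.30) to *MT1F* (2.16) and *SLC30A1*, were the same in both groups. The order among the leading genes depends on the length chosen. With all exon bases of a gene merged, *MT2A* was at 46.0 CPM per kb in LNCaP parental cells, below *SLC30A4* at 48.1.

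The wider families were then read from the same fit. Of 14 SLC39 importers 11 were tested, and 4 were lower and 1 was higher at an FDR under 0.01, against 18.8% and 15.3% of all genes, with a median log2 fold change of -0.06. The only DEG was *SLC39A8*, which encodes ZIP8, an importer of zinc and manganese at the plasma membrane. It had 983, 887 and 1043 reads in parental cells against 339, 325 and 276 in PACT KO cells, and its level fell from 42.1 ± 1.13 to 13.6 ± 0.190 CPM (SD, n = 3). The log2 fold change was -1.63 ± 0.06 (SE; edgeR quasi-likelihood test, FDR 3.86e-23), larger than that of any member importer or exporter. *SLC39A4*, the intestinal importer ZIP4, was at 23.8 and 18.8 CPM (-0.33 ± 0.07, edgeR FDR 1.46e-04), and *SLC39A6*, the importer ZIP6, was at 181 and 166 CPM (-0.12 ± 0.03, edgeR FDR 4.52e-04). *SLC39A13*, the importer ZIP13, rose from 25.4 to 29.5 CPM (0.22 ± 0.06, edgeR FDR 0.00245), and *SLC39A3* did not pass (-0.11 ± 0.04, edgeR FDR 0.0387). Summed over the family, the importers were at 953 to 961 CPM in parental cells against 892 to 901 CPM in PACT KO cells.

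Of 10 SLC30 exporters 8 were tested. *SLC30A4* was the only one to pass, which is 12.5% of the 8 tested, beside the 15.3% of all genes that were higher. The median log2 fold change was 0.13, against 0.00044 over all genes. *SLC30A6*, an exporter of the secretory pathway, came closest among the rest (0.13 ± 0.04, edgeR FDR 0.0121). The summed exporter level was 705 to 731 CPM in parental cells against 841 to 873 CPM in PACT KO cells. On average *SLC30A4* made up 344 and 473 CPM of this sum. Of 8 other genes of zinc handling, *MTF1* included, 5 had a negative log2 fold change and 3 a positive one. At an FDR under 0.01, 0 passed in the lower direction (beside 18.8% of all genes) and 2 in the higher (25%, beside 15.3%). *TMEM163*, a zinc transporter of vesicles and the plasma membrane, had 34, 30 and 25 reads against 46, 70 and 53 and was a DEG (0.92 ± 0.20, edgeR FDR 2.70e-04), and *SLC11A2*, the divalent metal transporter DMT1, rose from 129 to 139 CPM (0.11 ± 0.03, edgeR FDR 0.00317). Over all 44 listed zinc genes 31 entered the fit, 7 passed in the lower and 4 in the higher direction, and the median log2 fold change was -0.01. These are 22.6% and 12.9% of the genes in the fit, near the 18.8% and 15.3% over all genes. *MT1G* is counted in the 31 and the 7 although it entered only through its parental reads, so the 22.6% is a description only.

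**Figure D4:**
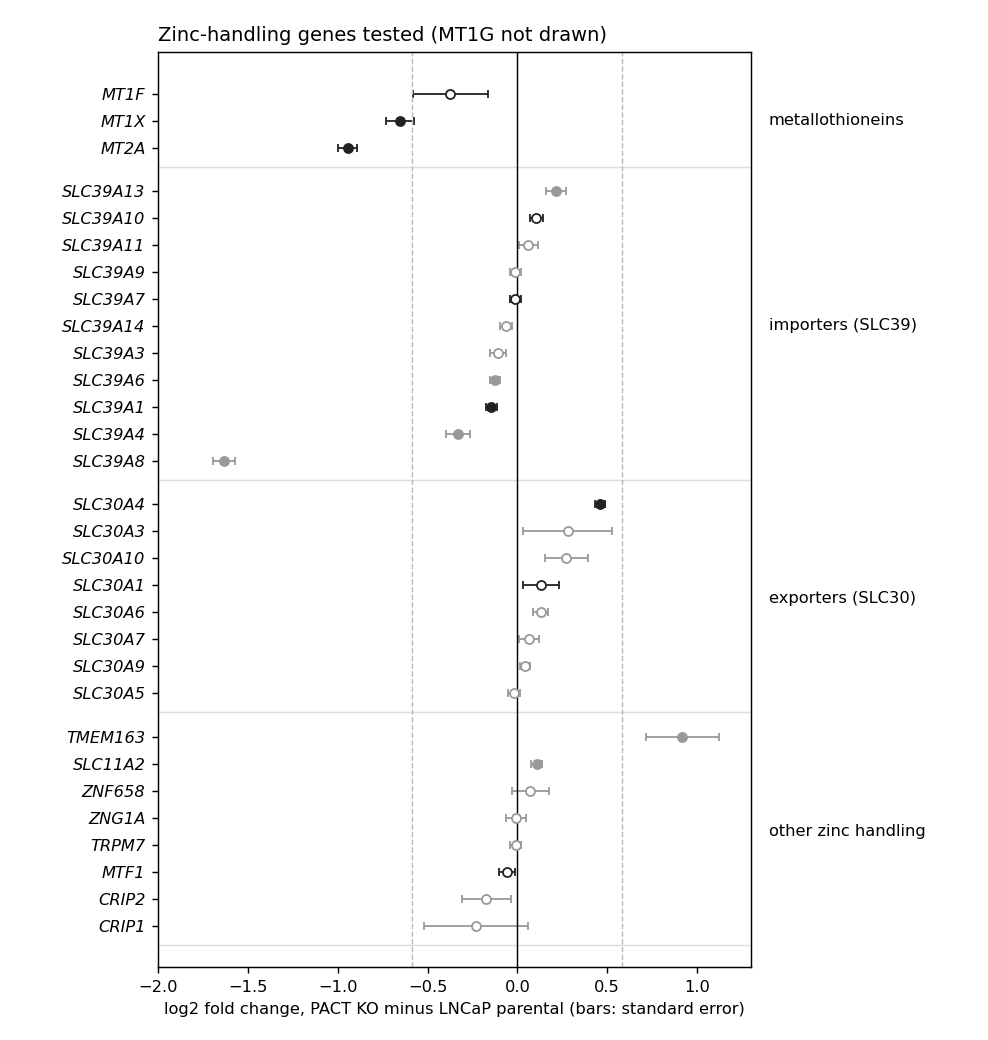
Log2 fold change (PACT KO minus LNCaP parental, x axis) with its SE of tested zinc-handling genes, grouped by family; black marks the genes chosen as members, grey the others, filled circles an FDR under 0.01, and dashed lines a 1.5-fold change. *MT1G*, with 3 reads in all PACT KO libraries together, is not drawn. The 3 metallothioneins drawn lie to the left of 0 (*MT1F* did not pass the test), *SLC39A8* (-1.63) stands apart among the importers, and *SLC30A4* (0.46) is the only filled exporter.

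Other metals and the metabolism tied to zinc were described by lists compiled from general knowledge. Of 11 copper genes tested, 5 were lower (45.5%, beside 18.8% of all genes) and 1 was higher (9.09%, beside 15.3%), with a median log2 fold change of -0.09. *SLC31A1*, the copper importer, had a log2 fold change of -0.21, *ATOX1*, a copper chaperone, of -0.28 and *SCO2*, a cytochrome oxidase assembly factor, of -0.33. Of 13 iron genes tested, 1 was lower (7.69%) and 5 were higher (38.5%), beside the same shares of all genes, with a median of 0.03. The lower one was *TFRC*, the transferrin receptor (-0.29), and *STEAP2* (0.17) and *STEAP1* (0.11), metalloreductase family genes of the prostate, were among the higher.

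Metallothioneins are also known as genes of oxidative stress. A total of 17 genes of the NRF2 response and its regulators were tested. At an FDR under 0.01, 14 were lower (82.4%, beside 18.8% of all genes) and 0 were higher (beside 15.3%). The median log2 fold change was -0.27. *NQO1*, a quinone reductase and the only DEG of the list, went from 198 to 126 CPM (-0.65 ± 0.03 SE, edgeR FDR 1.36e-18), and *TKT* (-0.42), a pentose phosphate enzyme, and *TXNRD1* (-0.35), thioredoxin reductase, were among the others. No metallothionein is in this list, and no test of the lists against each other was made.

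Of 11 citrate genes tested, 6 were lower (54.5%, beside 18.8% of all genes) and 1 was higher (9.09%, beside 15.3%), with a median of -0.13. *CS*, citrate synthase, had a log2 fold change of -0.22 and *OGDH*, a subunit of the oxoglutarate dehydrogenase, of -0.19. *SLC1A1*, which encodes a transporter of glutamate and aspartate, rose by 0.66 ± 0.06 (SE; edgeR quasi-likelihood test, FDR 2.09e-11). Zinc itself was not measured in these cells.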

How the data were processed

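PolyA RNA of 3 LNCaP parental and 3 PACT KO dishes was sequenced. The authors deposited whole-number counts of reads per NCBI Gene number, not normalized. The submitters' processing notes name bcl2fastq 2.20.0.422, STAR 2.5.3a, StringTie 1.3.3, featureCounts 1.5.3 and the build hg38, without saying which role each had. The annotation and the handling of strand and of reads that match several genes are not given in the sources used here. Reads that match several metallothioneins may therefore be missing from their counts.

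A row without a gene number, 0.0688% to 0.0708% of counts, was left out. Symbols and positions came from RefSeq (GRCh38.p14), and 92.4% of 29806 gene numbers received a symbol. Genes were kept with filterByExpr defaults, scaled by TMM and tested with glmQLFit and glmQLFTest in edgeR 4.0.16 (R 4.3.3), 2-sided, group only, with Benjamini-Hochberg adjustment over 14462 genes. The thresholds were an FDR under 0.01 and, for a DEG, a 1.5-fold change. SE is the absolute log2 fold change divided by the square root of F, and 95% intervals are normal intervals from it. CPM use TMM factors. An exact permutation test of 3 against 3 cannot give a p under 0.1, so none was used. The test was checked on simulated counts that gave every gene the same spread (dispersion 0.000841) and left weakly expressed genes unchanged. That check therefore does not cover differences in spread between genes, or changes in weakly expressed ones.

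Lists were described by counts and medians, with no set test. The members and lists were chosen with earlier results of these data known. Named were all members, *PRKRA*, other zinc genes that were DEGs or had the 6 smallest p-values among the rest, untested metallothioneins with at least 10 reads in a library, and at most 3 genes of smallest p per remaining list. Alternatives were other size factors, upper quartile scaling, 2 other filters, DESeq2 1.42.0, voom in limma 3.58.1, a replicate block, an FDR under 0.05, summed metallothioneins and each library left out in turn. Promoter windows and figures were made with Python 3.11.15, pandas 2.3.3, numpy 2.4.6 and matplotlib 3.10.9, and lengths came from GENCODE 29.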

Additional observations from a re-analysis of the deposited data

How the results depend on the processing

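The count of 3 members that fell was the same under the replicate block and without any 1 library (3 to 3), and the 2 DEGs among them likewise. The 1 member that rose became 2 with upper quartile scaling, with an FDR under 0.05 and without LNCaP parental replicate 3 (1 to 2 over the libraries left out). Under each of these the added member was *SLC39A10*. Upper quartile scaling moved the median log2 fold change of all genes to 0.0245. *SLC39A7*, which never passed, changed sign to 0.012 with upper quartile scaling, to 0.00083 without LNCaP parental replicate 1 and to 0.0044 without PACT KO replicate 2, in a range of -0.035 to 0.0044 over the libraries left out. Over 13 alternatives the log2 fold change of *MT2A* lay between -0.98 and -0.88, of *MT1X* between -0.68 and -0.61, of *SLC39A1* between -0.16 and -0.12 and of *SLC30A4* between 0.43 and 0.49, each on the same side of the threshold. With the replicate block, 2631 genes passed in the lower and 2139 in the higher direction, and it changed no call of a member. Deviations from the group mean had correlations of -0.094, 0.0029 and -0.086 between same-numbered libraries, and of -0.083 to 0.153 between differently numbered ones. Deviations within a group of 3 are tied to one another, so these values cannot decide whether the numbers pair the samples. *MT1F* ran from -0.54 to -0.13 and *SLC39A10* from 0.08 to 0.15 over the libraries left out. Depth limits *MT1F*, *MT1G* and *MT3*, with at most 56 reads in a library.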
